A study of Mus musculus with 5 samples.

Results

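This account follows the 4 UPF genes, Upf1, Upf2, Upf3a and Upf3b, which were taken by symbol from a table of 55573 genes, each with 1 row. The libraries were made from polyadenylated RNA of N2A (Neuro-2A) cells, a neuroblastoma line of the mouse. The cells had been transfected with 60 pmol of Silencer Negative Control #1 siRNA (siCtl, 2 libraries, replicates 1 and 3) or of an siRNA against Upf1 (siUpf1, 3 libraries, replicates 1, 2 and 3). Both groups were thus transfected cells of the same line, no untransfected cells were analysed here, and the comparison asks how the UPF genes respond when Upf1 is depleted with 1 siRNA.

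Nonsense-mediated mRNA decay (NMD) degrades mRNAs on which translation ends too early or far from the normal context of a stop codon. UPF1 is the ATP-dependent RNA helicase at its centre, and it is phosphorylated by the SMG1 kinase. UPF2 is the bridge that binds UPF1 and a UPF3 protein, and UPF3A and UPF3B are paralogs that link UPF2 to the exon junction complex left on spliced mRNA. UPF3B is encoded on the X chromosome, and its loss in humans causes intellectual disability. Several NMD factor mRNAs are themselves NMD targets in mammalian cells, a feedback that has been described for Upf2 and Upf3b among others.

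The siRNA and its place in Upf1 mRNA are shown because every other value depends on them. The sense strand is the one listed by the study, with capitals for the bases that face the seed of the antisense strand. In the antisense strand capitals mark the seed, bases 2 to 8 from its 5′ end. In the mRNA, taken from GENCODE M21 (GRCm38), capitals mark the site and lower case the flanking bases.
siRNA sense strand: ucaagguuccuGAUAAUUa
siRNA antisense strand: uAAUUAUCaggaaccuuga
Upf1 mRNA: cgtcaTCAAGGTTCCTGATAATTAtggtg

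The site lies in the coding sequence, from base 1160 of the reading frame (codon 387). It spans a splice junction on chromosome 8, minus strand, with 15 bases in exon 8 of 24 (chr8:70339743-70339757) and 4 bases in exon 9 (chr8:70339429-70339432). Both annotated Upf1 transcripts contain it. Of 21901 protein-coding genes, each represented by 1 mRNA, 1 matched all 19 bases, 0 matched 18 or 17, and 10 matched 16.

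The closest windows in the mRNAs of the 3 partners are shown to give the distance from the intended target, with capitals at the bases that match the siRNA.
Upf2 mRNA: TCAAGGTcaCTGccAAgaA
Upf3a mRNA: TCAAGcTTCtTaAaAAact
Upf3b mRNA: TCcAGaaTaCaGAaAATTt

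These windows, all in coding sequence, matched at 13, 12 and 12 of 19 bases, and the median over all coding genes was 12. The 7-mer GATAATT, complementary to the antisense seed, was not in the representative mRNAs of Upf2, Upf3a or Upf3b on the sense strand. It was in 11.6% of all representative mRNAs and in 7.17% of their 3′ UTRs. In Upf1 it occurred once, inside the siRNA site.

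Libraries held 20402205 to 27717594 assigned reads, and the UPF genes 637 to 5557 reads each. N2A identity was checked with 13 neuroblastoma and neuronal markers, whose summed level was 1446 to 1469 CPM (counts scaled to the library total) in siCtl and 1711 to 1757 in siUpf1. Of them, 7 were called higher and 1 lower, while Nefl was near 3 normalised counts. The sum of 8 fibroblast, glial, immune and endothelial markers was 35.6 to 37.3 CPM in siCtl and 32.3 to 33.9 in siUpf1, with 2 of the 6 tested called lower and Sox10 at 3 reads or fewer in every library. The part of these shifts in the results was not tested.

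Upf1, the target, checked the labels. DESeq2-normalised read counts of Upf1 were 5217 and 5243 in siCtl replicates 1 and 3, and 2403, 2496 and 2449 in siUpf1 replicates 1, 2 and 3. All 3 siUpf1 libraries were far below both siCtl libraries, and the spread inside each group was small. The mean fell from 5230 ± 18.1 (SD, n = 2) to 2449 ± 46.6 (SD, n = 3), so that 46.8% of the siCtl level remained. The log2 fold change was -1.10 (SE 0.051, DESeq2 adjusted p = 7.09e-101).

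The Upf1 mRNA was not the one that fell most. Of 15191 genes tested, 6822 were called (44.9%), 22.9% as lower and 22.0% as higher in siUpf1. Of the genes called lower, 248 had a log2 fold change below that of Upf1, and 109 of these averaged 100 normalised counts or more. By p-value, 35 genes ranked ahead of Upf1. Fewer cells with transfected siRNA and less depletion per cell cannot be told apart in bulk RNA.

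The groups did not overlap for Upf1, Upf2 and Upf3a and overlapped for Upf3b; of all genes tested, 69.4% did not overlap. The plot of normalised counts by library shows this for the 4 genes.

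**Figure D1:**
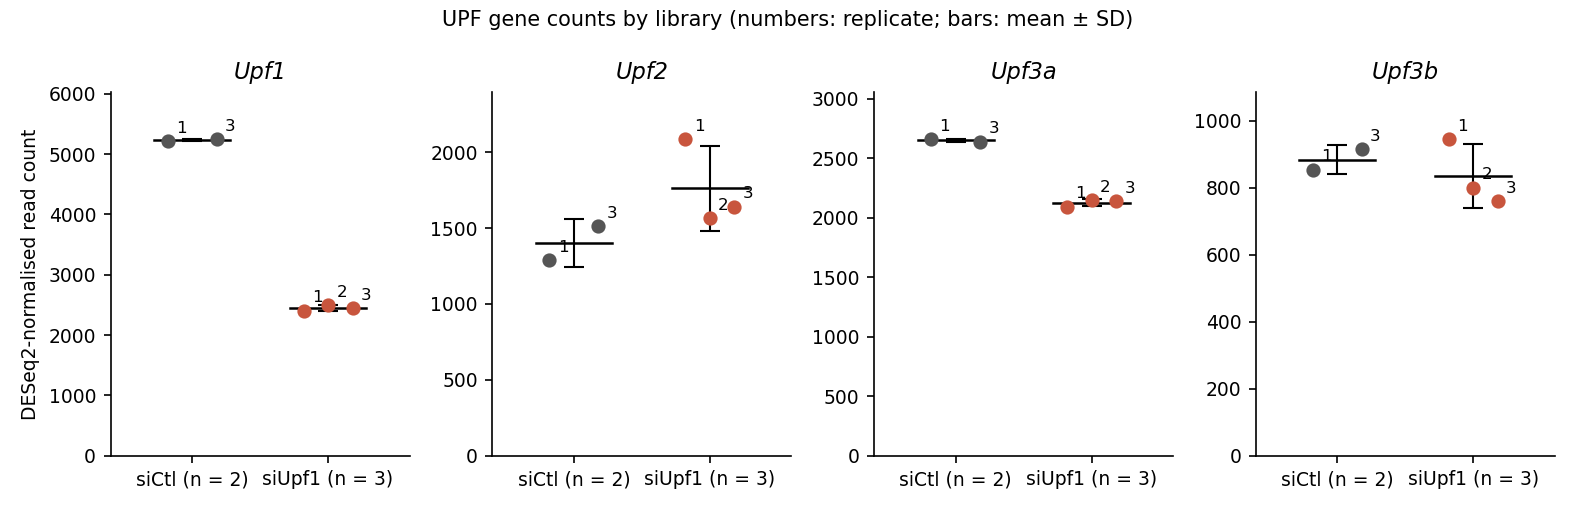
DESeq2-normalised read counts (vertical axes, from 0, a scale for each gene) of Upf1, Upf2, Upf3a and Upf3b in siCtl (grey, n = 2) and siUpf1 (red, n = 3) libraries. Points are libraries with their replicate number, and bars are the mean ± SD. Upf1 and Upf3a fall into tight and separate groups, whereas siUpf1 replicate 1 stands above the other siUpf1 libraries for Upf2 and Upf3b.

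Among the partners, Upf3a was called lower. It had 2659 and 2642 normalised counts in siCtl replicates 1 and 3, and 2094, 2146 and 2141 in siUpf1 replicates 1, 2 and 3. The highest siUpf1 library was well under the lowest siCtl library. The mean fell from 2650 ± 12.6 (SD, n = 2) to 2127 ± 29 (SD, n = 3), which is 80.2% of the siCtl level. The log2 fold change was -0.32 (SE 0.057, 95% interval -0.43 to -0.21, DESeq2 adjusted p = 1.79e-07). Its replicates varied by 0.474% of the mean in siCtl and 1.36% in siUpf1, less than the counting error of 1.89% to 2.42% that its read numbers give. Of all tested genes, 21.5% had a lower log2 fold change, so that the decrease of Upf3a was a moderate one in these libraries.

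Upf2, the bridging factor, had higher means in siUpf1 but was not called by DESeq2. Normalised counts were 1290 and 1512 in siCtl replicates 1 and 3, and 2085, 1565 and 1642 in siUpf1 replicates 1, 2 and 3. The lowest siUpf1 library lay just above the highest siCtl library, and siUpf1 replicate 1 was set apart from the rest of its group. The means were 1401 ± 157 (SD, n = 2) and 1764 ± 280 (SD, n = 3), with a log2 fold change of 0.33 (SE 0.189, 95% interval -0.04 to 0.70, DESeq2 adjusted p = 0.147). The interval thus included no change as well as an increase larger in size than the decrease of Upf3a.

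The replicates of Upf2 varied by more than its read numbers alone would give. Its 1231 to 2344 reads per library imply a counting error of 2.07% to 2.85%, while its replicates varied by 11.2% in siCtl and 15.9% in siUpf1. The dispersion that DESeq2 used for Upf2 was 0.02, which is 8.25 times the trend for genes of that mean. The edgeR quasi-likelihood test, which called 54.6% of the genes it tested, gave Upf2 a log2 fold change of 0.34 and an adjusted p of 0.00732. The DESeq2 log2 fold change was 0.19 without siUpf1 replicate 1 (adjusted p = 0.0761) and 0.22 without siCtl replicate 1 (adjusted p = 0.548).

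Upf3b was not called. Its normalised counts were 853 and 914 in siCtl replicates 1 and 3, and 944, 799 and 760 in siUpf1 replicates 1, 2 and 3. One siUpf1 library was above both siCtl libraries and the other two were below them. The means were 884 ± 43.1 (SD, n = 2) and 834 ± 96.5 (SD, n = 3), with a log2 fold change of -0.08 (SE 0.101, 95% interval -0.28 to 0.12, DESeq2 adjusted p = 0.551). Leaving out 1 library at a time moved this fold change between -0.18 (without siUpf1 replicate 1) and -0.02 (without siUpf1 replicate 3). The fold change fitted for Upf3a lies just outside this interval, but the difference between both genes was not tested by this fit.

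The library that was high for Upf2 was also high for Upf3b. On the log2 scale siUpf1 replicate 1 differed from the mean of replicates 2 and 3 by 0.38 for Upf2 and 0.28 for Upf3b, against -0.04 for Upf1 and -0.03 for Upf3a. Between siCtl replicates 3 and 1 the log2 difference was 0.23 for Upf2 and 0.10 for Upf3b, and 0.01 and -0.01 for Upf1 and Upf3a. The mRNAs of Upf2 and Upf3b have a GC content of 43.5% and 42.5%, and those of Upf1 and Upf3a of 57.9% and 52.9%.

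Over other genes, the difference of that library also varied with base composition. The 1893 genes with a GC content below 44% were higher in siUpf1 replicate 1 than in replicates 2 and 3, by a median of 0.10 on the log2 scale, while the 2854 genes at or above 55% had a median of -0.05. Between siCtl replicates 3 and 1 the same classes had medians of 0.02 and 0.01. The fitted trend with length and GC content in siUpf1 replicates 1, 2 and 3 was 0.06, -0.02 and 0.04 log2 units for Upf2. For Upf3b it was 0.04, -0.05 and -0.01. Beyond these values and the fit that follows, which gives group fold changes only, the part of base composition was not tested. With each library's trend with length and GC content removed, the log2 fold change was 0.26 for Upf2 (DESeq2 adjusted p = 0.217) and -0.07 for Upf3b (DESeq2 adjusted p = 0.605). Those of Upf1 and Upf3a were -1.13 and -0.26, and both stayed called.

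The paralogs Upf3a and Upf3b can be compared within a library, which needs no scaling between libraries. Upf3a supplied 75.7% of the reads of the pair in siCtl replicate 1 (exact 95% binomial interval 74.2% to 77.2%) and 74.3% in siCtl replicate 3 (72.9% to 75.7%). In siUpf1 replicates 1, 2 and 3 it supplied 68.9% (67.3% to 70.5%), 72.9% (71.0% to 74.7%) and 73.8% (72.2% to 75.3%). All 3 siUpf1 shares were below both siCtl shares, but siUpf1 replicate 3 lay inside the counting interval of siCtl replicate 3.

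The mean share of Upf3a was 75.0% ± 1.00 (SD, n = 2) in siCtl and 71.9% ± 2.58 (SD, n = 3) in siUpf1, a difference of -3.14 percentage points. The exact permutation test over the 5 libraries, two-sided on the absolute difference, gave p = 0.2. With 10 splits the smallest p is 0.1, so this design cannot pass 0.05. Without siUpf1 replicate 1 the difference was -1.67 percentage points.

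Together the UPF3 genes had 3513 and 3556 normalised counts in siCtl replicates 1 and 3, and 3037, 2946 and 2902 in siUpf1 replicates 1, 2 and 3. The groups were apart, with means of 3534 ± 30.5 (SD, n = 2) and 2962 ± 69.2 (SD, n = 3) and an exact permutation p = 0.1, the smallest this design allows. No 50-base stretch of the representative mRNAs of Upf1, Upf2 or Upf3b occurred in an annotated transcript of another gene. For Upf3a this held for all but 2.44% of the stretches, and 0 of these were shared with another UPF gene.

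**Figure D2:**
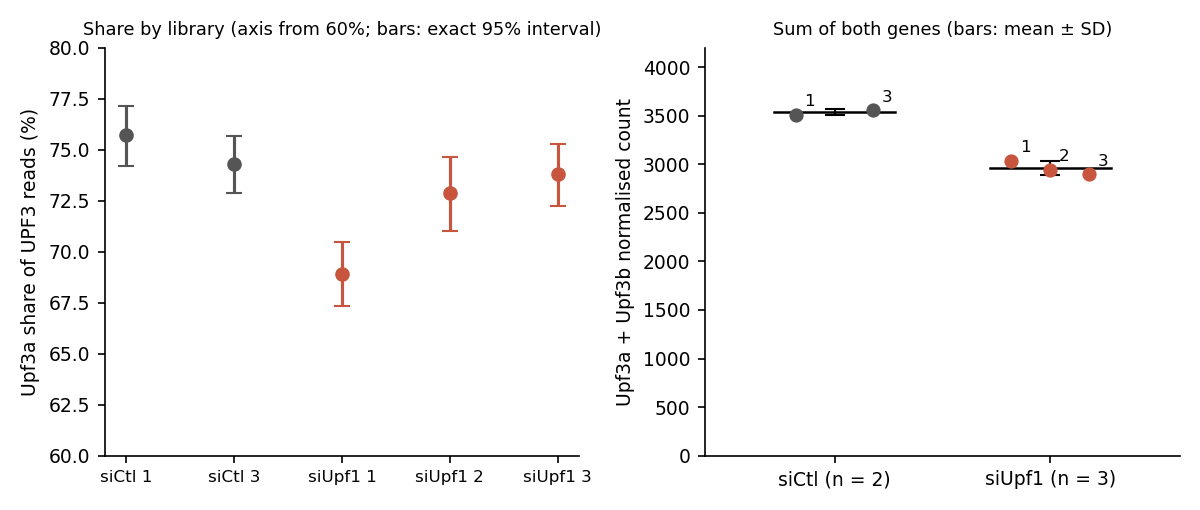
Left, Upf3a reads as a percentage of Upf3a plus Upf3b reads in each library, on an axis that starts at 60%, with exact 95% binomial intervals, which cover counting error only. Right, the sum of both genes in normalised counts by group, with replicate numbers and the mean ± SD. The share of siUpf1 replicate 1, 68.9%, is the lowest, and the sum is lower in all 3 siUpf1 libraries.

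Levels of the 4 genes were compared per kilobase (kb) of sequence. Per kb of merged exons, Upf1 had the highest level in siCtl, with 1132 ± 3.92 normalised counts per kb (SD, n = 2). Upf3a followed with 452 ± 2.15, Upf2 with 256 ± 28.7 and Upf3b with 221 ± 10.8. No neighbours in this order overlapped in siCtl, although Upf2 and Upf3b came close, at 236 against 229 in their nearest libraries.

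In siUpf1 the levels per kb of merged exons were 530 ± 10.1 for Upf1, 363 ± 4.95 for Upf3a, 322 ± 51.2 for Upf2 and 209 ± 24.1 for Upf3b (SD, n = 3). Here Upf3a and Upf2 could not be ordered, because siUpf1 replicate 1 of Upf2, at 381, was above every Upf3a library.

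The place of Upf3a in this order depends on the length that is used. Its 3 annotated transcripts include 2 with retained introns, which bring its merged exons to 5865 bases, whereas its coding transcript has 2057. Per kb of the longest coding transcript, Upf3a had the highest level in siCtl, 1289 ± 6.12, ahead of Upf1 at 1132 ± 3.92, Upf3b at 377 ± 18.4 and Upf2 at 271 ± 30.3 (SD, n = 2). In siUpf1 these were 1034 ± 14.1 for Upf3a, 530 ± 10.1 for Upf1, 356 ± 41.2 for Upf3b and 341 ± 54.2 for Upf2 (SD, n = 3), and Upf3b and Upf2 overlapped. Gene-level counts do not tell which Upf3a transcripts the reads came from.

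**Figure D3:**
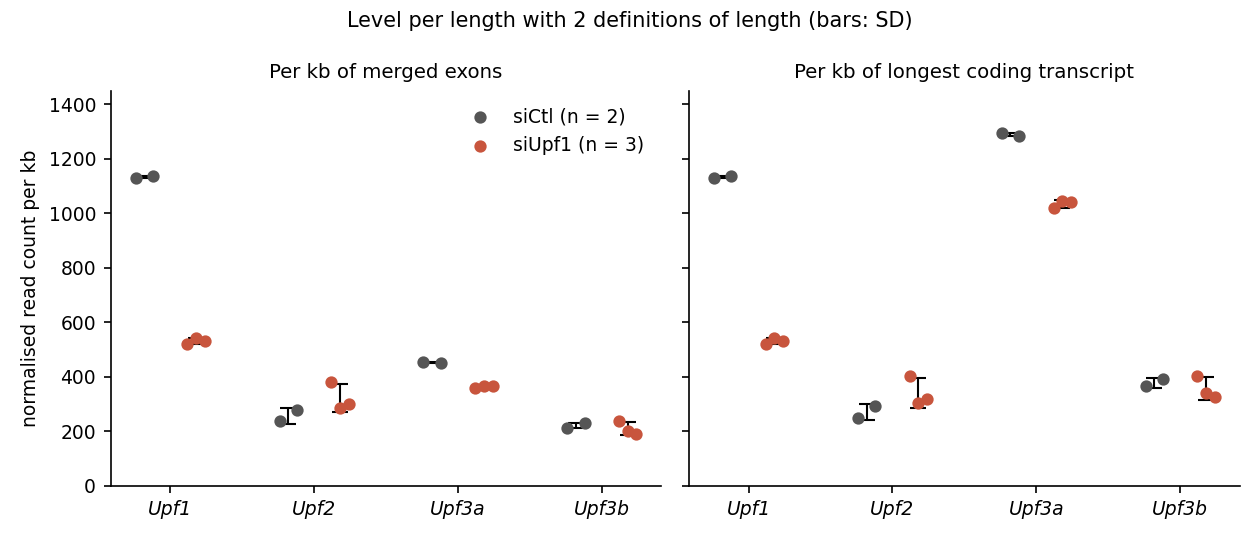
Normalised read counts per kb (vertical axis, from 0) of the 4 UPF genes in siCtl (grey, n = 2) and siUpf1 (red, n = 3) libraries, with SD bars, per kb of merged exons on the left and of the longest coding transcript on the right. Upf3a moves from 452 to 1289 in siCtl between both definitions, while Upf1 has 1132 in each.

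The ratio of Upf1 to each partner was lower in every siUpf1 library than in both siCtl libraries. Per kb of merged exons, the Upf1 level was 4.79 and 4.11 times that of Upf2 in siCtl replicates 1 and 3, and 1.37, 1.89 and 1.77 times in siUpf1 replicates 1, 2 and 3. Its ratio to Upf3b was 5.29 and 4.97 in siCtl and 2.21 to 2.79 in siUpf1. The ratio to Upf3a had the smallest spread, with 2.49 and 2.52 in siCtl and 1.46, 1.48 and 1.45 in siUpf1. Per kb of the longest coding transcript there was no excess over Upf3a, the ratio being 0.87 and 0.88 in siCtl and 0.51 to 0.52 in siUpf1. On that scale the ratio to Upf2 was 4.53 and 3.88 in siCtl and 1.29 to 1.79 in siUpf1, and that to Upf3b was 3.10 and 2.91 in siCtl and 1.29 to 1.63 in siUpf1. These ratios carry the fall of Upf1 itself and are given as a description.

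In the annotation, Upf1 (ENSMUSG00000058301.8) lies at chr8:70331525-70353278 on the minus strand and Upf3a (ENSMUSG00000038398.8) at chr8:13785615-13799193 on the plus strand. Upf2 (ENSMUSG00000043241.14) lies at chr2:5951469-6056703 on the plus strand and Upf3b (ENSMUSG00000036572.16) at chrX:37091678-37110322 on the minus strand. None of their transcripts has the type nonsense-mediated decay there. Exons of Cers1 and Gdf1 overlap those of Upf1 on the opposite strand. Cers1 had 186 to 250 reads per library and Gdf1 had 0, and the authors counted reads by strand.

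Genes with the profile closest to each UPF gene were taken from 10962 genes that averaged 100 normalised counts or more. The measure was the root-mean-square difference over the 5 libraries, in log2 units relative to the siCtl mean. Closest to Upf1 were Urb2 (0.021), Igfbp6 (0.030) and Emc3 (0.038). Among the closest to Upf3a were Ino80 (0.011) and Wdr62 (0.014). The nearest to Upf2 were Zfp386 (0.026), Smc6 (0.034) and Resf1 (0.040), and to Upf3b 2610044O15Rik8 (0.025), Zfp354a (0.032) and Smc2 (0.035). Like Upf2 and Upf3b themselves, none of these 6 genes was called by DESeq2, which called 44.9% of all genes tested. They were chosen by the same counts that DESeq2 tests, so this largely follows from the choice.

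The rest of the NMD pathway was examined with 25 genes, all of which were tested. DESeq2 called 8 higher and 10 lower, so that 72.0% were called against 44.9% of all genes, and the median log2 fold change was -0.13 against 0.00 for all genes tested. The lowest group mean among the 25 was 295 normalised counts (Gspt2 in siCtl), whereas all genes tested include genes with fewer reads. Of the 3481 genes called lower, 3222 averaged 100 or more, as did 10963 genes of the table. The shares over all genes, here and for the lists below, were not matched for read number. With the replicate number added to the fit, 9 of the 25 were called, against 31.1% of all genes. In that fit siUpf1 replicate 2 does not inform the group difference, because no siCtl library shares its number. When 1 library was left out, the median of the 25 genes ranged from -0.18 (without siUpf1 replicate 1) to -0.05 (without siUpf1 replicate 2).

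By role, the SMG genes were mostly called higher. Smg6, the endonuclease that cuts NMD targets, rose from 1648 ± 32.7 (SD, n = 2) to 2651 ± 62.6 normalised counts (SD, n = 3; log2 fold change 0.69, DESeq2 adjusted p = 2.31e-28). The UPF1 kinase Smg1 rose by 0.52, and Smg5, an adaptor of phosphorylated UPF1, rose by 0.26 on the log2 scale. Smg8, a subunit of the SMG1 complex, was called lower (-0.25), and Smg9, another subunit, was not called (0.14).

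Genes of the exon junction complex, to which UPF3 proteins bind, were called in both directions. Casc3 (0.48) and the peripheral factor Rnps1 (0.32) rose, Rbm8a (-0.47) and Magoh (-0.22) fell, and Eif4a3 (0.12) and Magohb (-0.22) were not called, on the log2 scale. Both canonical release factors, Etf1 (-0.26) and Gspt1 (-0.18), fell, and Gspt2 (0.12) was not called. Ruvbl1, an ATPase that acts with SMG1-family kinases, was the lowest of the 25 (-0.58), followed by the NMD factor Nbas (-0.48).

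Of the cap-binding genes, Ncbp1 rose (0.38) and Ncbp2 fell (-0.26). In the decapping and decay group Dcp1a rose (0.25), Pnrc2 fell (-0.19), and Dcp2 (-0.05) and Xrn1 (-0.13) were not called. The DEAH-box helicase Dhx34 was not called (-0.27), and Ruvbl2 was called lower (-0.19).

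**Figure D4:**
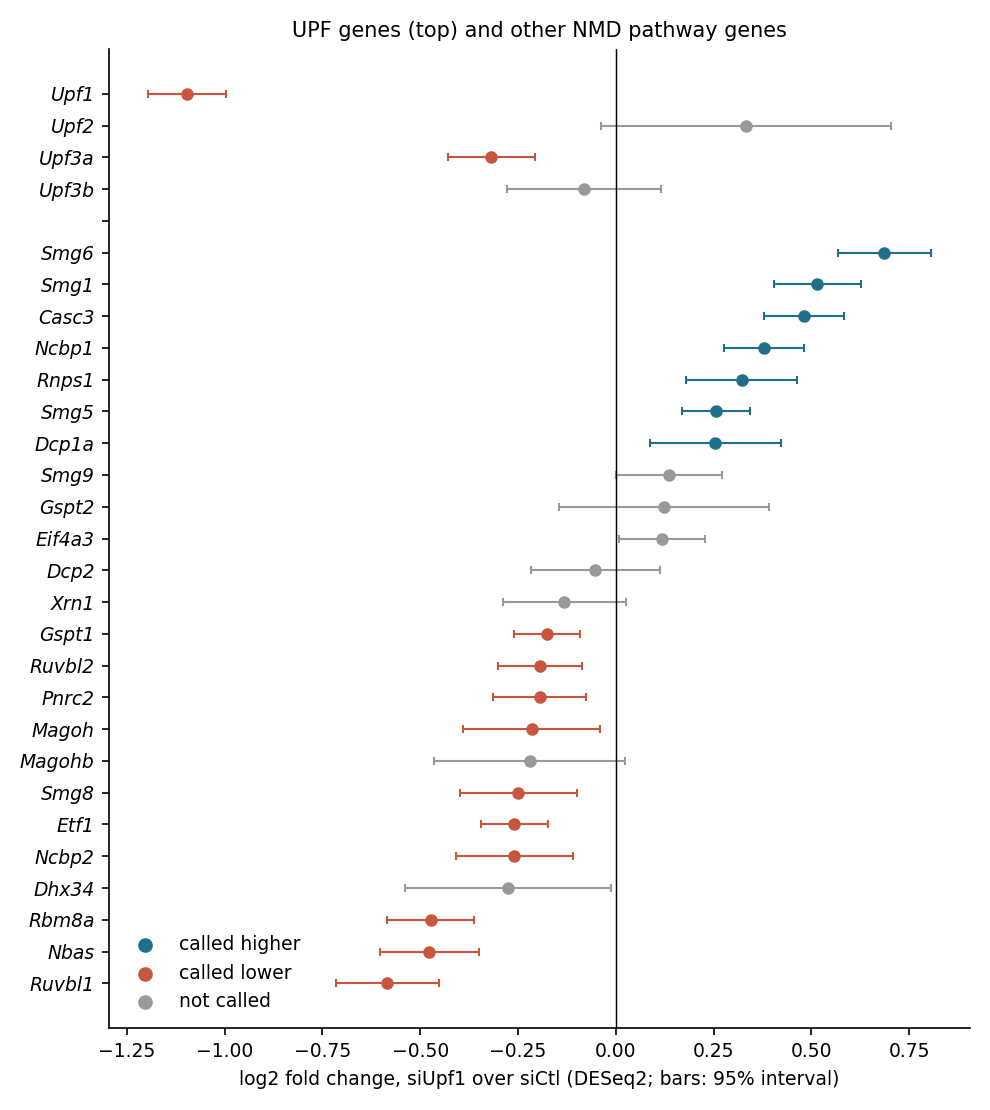
DESeq2 log2 fold change of siUpf1 over siCtl (horizontal axis) for the 4 UPF genes at the top and for other NMD pathway genes in order of their value. Bars are 95% intervals, blue genes were called higher, red lower and grey not called at an adjusted p under 0.05. Upf1, at -1.10, is the lowest of these genes, and the bar of Upf2 is wide, from -0.04 to 0.70.

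A list of 6 NMD factor genes whose mRNAs are known as NMD targets, Upf1 left out, was counted separately. DESeq2 called 4 of the 6 higher (66.7%, against 22.0% of all genes) and 0 lower. Smg1, Smg5 and Smg6 were among the 4, and the 2 not called were the UPF genes Upf2 and Upf3b. In these gene-level counts Smg6 and Smg1 had log2 fold changes of 0.69 and 0.52, with intervals that lie above the whole interval of Upf3b, whereas the interval of Upf2 overlaps both.

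Upf1 belongs to a family of superfamily 1 RNA and DNA helicases, and 9 other members were examined. Of the 8 that were tested, 5 were called lower and 1 higher, where 22.9% and 22.0% of all genes were called in these directions, and the median log2 fold change was -0.35. The germline gene Mov10l1 had about 1 normalised count in siCtl and was not tested.

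The lowest was Mov10, which acts with the RNA silencing machinery and fell from 2183 ± 20.6 (SD, n = 2) to 1272 ± 19.3 normalised counts (SD, n = 3; log2 fold change -0.78, DESeq2 adjusted p = 3.29e-31). Znfx1 (-0.75), Helz2 (-0.58), the splicing helicase Aqr (-0.35) and Helz (-0.34) fell as well, and Dna2, a nuclease-helicase of DNA replication, rose (0.46), all on the log2 scale. Ighmbp2 (-0.21) was not called.

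Their mRNAs matched the siRNA at 11 to 14 of 19 bases, and that of Helz2 held the seed 7-mer GATAATT once, in its 3′ UTR. Mov10, Znfx1 and Helz2 are interferon-inducible, and the interferon response moved with the groups. A list of 8 interferon-stimulated genes had 6 called lower and 0 called higher, with a sum of 265 to 269 CPM in siCtl and of 137 to 158 CPM in siUpf1. The part of this in the helicase values was not tested.

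**Figure D5:**
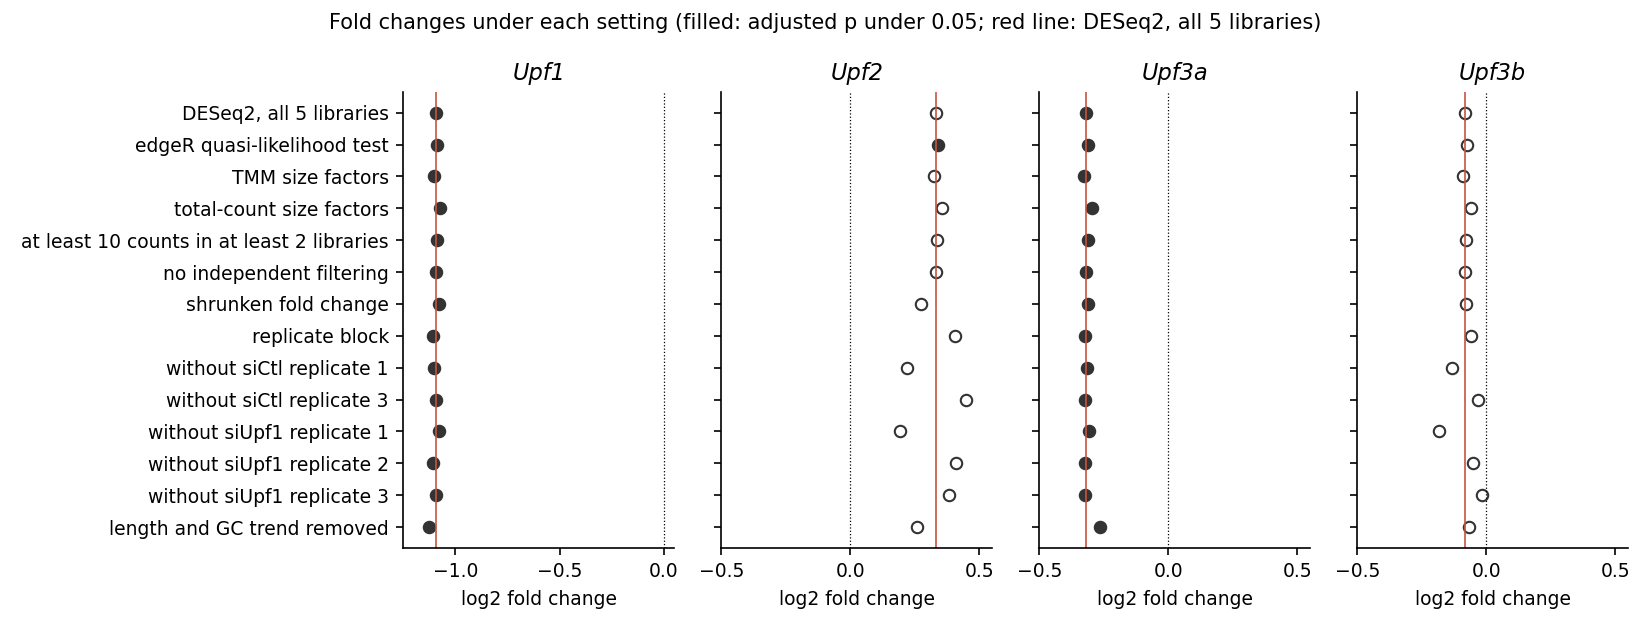
Log2 fold change of siUpf1 over siCtl (horizontal axes; the scale of Upf1 differs from the others) for each UPF gene under the DESeq2 fit to all 5 libraries and 13 alternatives, in rows. Filled points have an adjusted p under 0.05, and the red line is the fit to all libraries. The shrinkage row keeps the adjusted p of that fit. Upf1 and Upf3a are filled in every row, Upf2 in the edgeR row alone, and Upf3b in none.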

How the data were processed

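The table deposited by the authors held unnormalised read counts by gene for 2 siCtl and 3 siUpf1 libraries. The authors trimmed single-end reads with fastp, mapped them to GRCm38.p6 with STAR (2.7.0f in the submitters' processing notes) in a repeated pass, and used featureCounts (Subread 1.6.4) to count exonic reads of the reverse strand with GENCODE M22 or M25. Replicates were not pooled. Gene models and transcript sequences were taken from GENCODE M21 on the same build, and the representative mRNA was the protein-coding transcript with the longest coding sequence.

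DESeq2, the tool and adjusted p threshold of the study's methods, was run here over all genes (version 1.42.0 in R 4.3.3) with a single term for the group, the default size factors and independent filtering. Genes with a Benjamini-Hochberg adjusted p under 0.05 were called. The first alternative was edgeR 4.0.16. Scripts were tested on simulated data. Shares were compared with an exact permutation test (scipy 1.17.1) and have exact binomial intervals. Intervals from reads cover counting error only, since PCR copies are not independent molecules. Depth was 20402205 to 27717594 counts per library.

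The UPF genes and the gene lists were chosen with earlier results of these data known. Named were the 4 UPF genes, genes of the NMD pathway and helicase lists, and the 3 nearest profiles for each UPF gene; some items are not reported here. The study describes the protein blots of these siRNA-treated cells as independent experiments, but neither the labels nor its methods say that the sequenced replicates were separate cultures. The p-values then measure the spread between these libraries, which may be technical. Alternatives were TMM or total-count scaling, 2 filters, shrinkage, the replicate block, each library left out and, added after seeing the data, removal of length and GC trends (splines with 4 degrees of freedom). With 1 siCtl library left, that library was assumed to vary like the others.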

Additional observations from a re-analysis of the deposited data

How the results depend on the processing

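Under 13 alternatives Upf1 stayed called lower, with log2 fold changes of -1.13 to -1.07, and Upf3a stayed called lower, at -0.33 to -0.26. Upf2 kept its direction at 0.19 to 0.45 and was called in 1 of the 13, the edgeR test (0.34, adjusted p = 0.00732; range of adjusted p over the alternatives 0.00732 to 0.548). Upf3b kept its direction at -0.18 to -0.02 and was called in none. Shrinkage changed fold changes only and kept the adjusted p of the fit to all libraries, so its calls could not differ. The log2 fold changes over the fits that each left out 1 library were 0.19 to 0.45 for Upf2 and -0.18 to -0.02 for Upf3b. With the replicate number as a replicate block the log2 fold changes were -1.11 (Upf1), 0.41 (Upf2), -0.32 (Upf3a) and -0.06 (Upf3b), and the NMD pathway genes called fell from 18 to 9 of 25, where the share over all genes fell from 44.9% to 31.1%, and the feedback list had 3 of 6 called higher. In this fit siUpf1 replicate 2 does not inform the group difference, because no siCtl library shares its number. The SE of Upf1 was 0.097, against 0.051 without the block. The part of this in the lower counts was not tested. Whether equal numbers mark paired libraries was not settled. Deviations from the group means correlated across genes at -0.102 for number 1 and -0.105 for number 3, and number 2 has no siCtl library. The deviations of the 2 siCtl libraries mirror each other, so both values rest on 1 siCtl difference and cannot exclude pairing. The other alternatives gave 13 to 22 for the NMD pathway, the lowest without siCtl replicate 3 (37.2% of all genes called) and the highest with edgeR (54.6%), 4 or 5 of 6 for the feedback list and 6 or 7 for the helicases. The difference in the Upf3a share was -4.10 to -1.67 percentage points when 1 library was left out. Only 637 to 1061 reads per library stood behind Upf3b, whose counting error was up to 3.96%.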
